A study of Mus musculus with 8 samples.

Results

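The 45 genes described here carry out mitosis and chromosome segregation: the kinase CDK1 and its cyclins, the mitotic kinases, the spindle checkpoint, the kinetochore and centromere, the mitotic motors, the midzone and cytokinesis factors, the condensins, and the machinery that starts anaphase. They were taken by name from a list of G2/M, kinetochore, spindle and cytokinesis genes. No cut on measured values was made, but the list was chosen with earlier results of these data known. All 45 were in the table of 50615 genes and among the 17625 genes that passed the limit of 10 counts summed over the 8 libraries. The cells were bone marrow-derived macrophages (BMDMs) of C57BL/6 mice, and their poly(A) RNA was sequenced. They were grown from marrow with the growth factor M-CSF at 20 ng/ml over 6 days. All mice carried *Ncoa6* fl/fl alleles, with loxP sites around an exon of the nuclear receptor coactivator gene *Ncoa6*. *Ncoa6*-KO mice also carried LysM CRE, so that Cre came from the lysozyme 2 locus in myeloid cells, and the controls without Cre, labelled WT, are called *Ncoa6*-sufficient. Cells of each genotype were left in medium alone or were stimulated for 4 h with the bacterial lipid LPS (100 ng/ml) and then for 2 h with monosodium urate crystals (MSU, 200 µg/ml), with 2 libraries from different mice in each of the 4 groups. The first question was what the genes of cell division did when the macrophages were stimulated. The second was whether these genes differed in *Ncoa6*-KO cells in either culture condition. In every genotype comparison, loss of *Ncoa6* cannot be told apart from Cre at the lysozyme 2 locus, which the controls lacked.

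BMDMs in M-CSF are a dividing population, and the growth factor, through its receptor CSF1R, drives them through G1 into DNA synthesis and mitosis. The transcripts measured here accumulate in G2 and M phase. CDK1 bound to cyclin B starts mitosis, Polo-like and Aurora kinases build the spindle, kinetochores tie each chromatid to microtubules, and the checkpoint holds the anaphase-promoting complex until every chromosome is attached. Securin and separase then control the cut of cohesin, and the central spindle and contractile ring divide the cell. Many of these promoters hold a CHR element, with the letters TTTGAA, downstream of CCAAT boxes that bind NF-Y. The CHR is bound by the MuvB core, which represses in resting cells as part of the DREAM complex and activates in G2 with B-MYB and FOXM1.

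Promoter sequence shows what most of the 45 genes share beyond their roles. RefSeq windows on GRCm38.p6, from 250 bases before to 50 bases after the transcription start, were at hand for 38 of the 45 genes, and not for *Aurkb*, *Incenp*, *Tpx2*, *Foxm1*, *Ccna2*, *Kif20a* and *Spc24*. TTTGAA, or its reverse complement TTCAAA, was found in 29 of the 38 (76.3%), against 20.2% of the 27025 genes with a window and 15.0% of the 11590 genes with a window that passed the count limit. Counted on the sense strand alone the share was 57.9%, against 11.6% and 8.19%. CCAAT, or its reverse complement ATTGG, was found in 27 of the 38 (71.1%), against 41.1% and 42.5%. Both were found in 24 (63.2%), against 7.97% and 6.08%. Of 45 other mitotic genes with a window 53.3% held TTTGAA on either strand, and of 20 genes of DNA replication and the G1/S step 15.0% did, while 70.0% of these 20 held CCAAT. The G1/S genes thus held TTTGAA at the share of all tested genes, and CCAAT at the share of the members. A match of letters is a description and not a binding site. Below are the 160 bases from 130 before to 30 after the start of 6 genes, each 5′ to 3′ on the gene's own strand, with TTTGAA or TTCAAA and CCAAT or ATTGG in capitals. *Cdk1*, *Cdc20*, *Cdca8* and *Espl1* are shown because they hold both motifs and fell on stimulation, and *Cenpe* and *Pttg1* because they hold no TTTGAA and were the 2 members that rose in the test. These 6 were picked by outcome, and other members go against the pairing. *Kif4* and *Ube2c* hold both motifs and did not pass on stimulation in the reported fit. *Ncaph*, *Bub1*, *Birc5* and *Nuf2* hold no TTTGAA and fell in *Ncoa6*-sufficient cells (log2 fold change -2.31, -1.73, -1.61 and -1.51). In *Cdca8* the last TTTGAA and an ATTGG share 1 base.
Cdk1, chr10:69352883-69353042, minus strand: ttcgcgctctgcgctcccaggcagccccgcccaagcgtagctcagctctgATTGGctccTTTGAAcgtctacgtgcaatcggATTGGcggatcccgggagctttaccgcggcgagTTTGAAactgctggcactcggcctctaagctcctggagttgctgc
Cdc20, chr4:118437314-118437473, minus strand: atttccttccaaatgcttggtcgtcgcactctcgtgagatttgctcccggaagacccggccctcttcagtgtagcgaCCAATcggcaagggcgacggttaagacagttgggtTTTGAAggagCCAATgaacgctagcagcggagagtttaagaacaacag
Cdca8, chr4:124936888-124937047, minus strand: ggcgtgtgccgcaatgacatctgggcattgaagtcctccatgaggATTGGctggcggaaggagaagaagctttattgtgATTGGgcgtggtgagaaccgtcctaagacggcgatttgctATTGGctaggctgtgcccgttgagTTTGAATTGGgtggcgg
Espl1, chr15:102296163-102296322, plus strand: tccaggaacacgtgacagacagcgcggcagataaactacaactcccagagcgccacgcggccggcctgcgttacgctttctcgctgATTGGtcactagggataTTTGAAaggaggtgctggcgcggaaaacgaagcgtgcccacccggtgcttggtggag
Cenpe, chr3:135212433-135212592, plus strand: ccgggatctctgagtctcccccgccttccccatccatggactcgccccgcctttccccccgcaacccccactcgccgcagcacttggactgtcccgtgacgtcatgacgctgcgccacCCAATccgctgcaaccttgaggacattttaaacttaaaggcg
Pttg1, chr11:43425952-43426111, minus strand: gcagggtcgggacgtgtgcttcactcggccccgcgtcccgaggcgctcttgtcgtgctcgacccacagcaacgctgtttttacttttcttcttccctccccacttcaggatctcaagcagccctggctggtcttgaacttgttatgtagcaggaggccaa

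**Figure D1:**
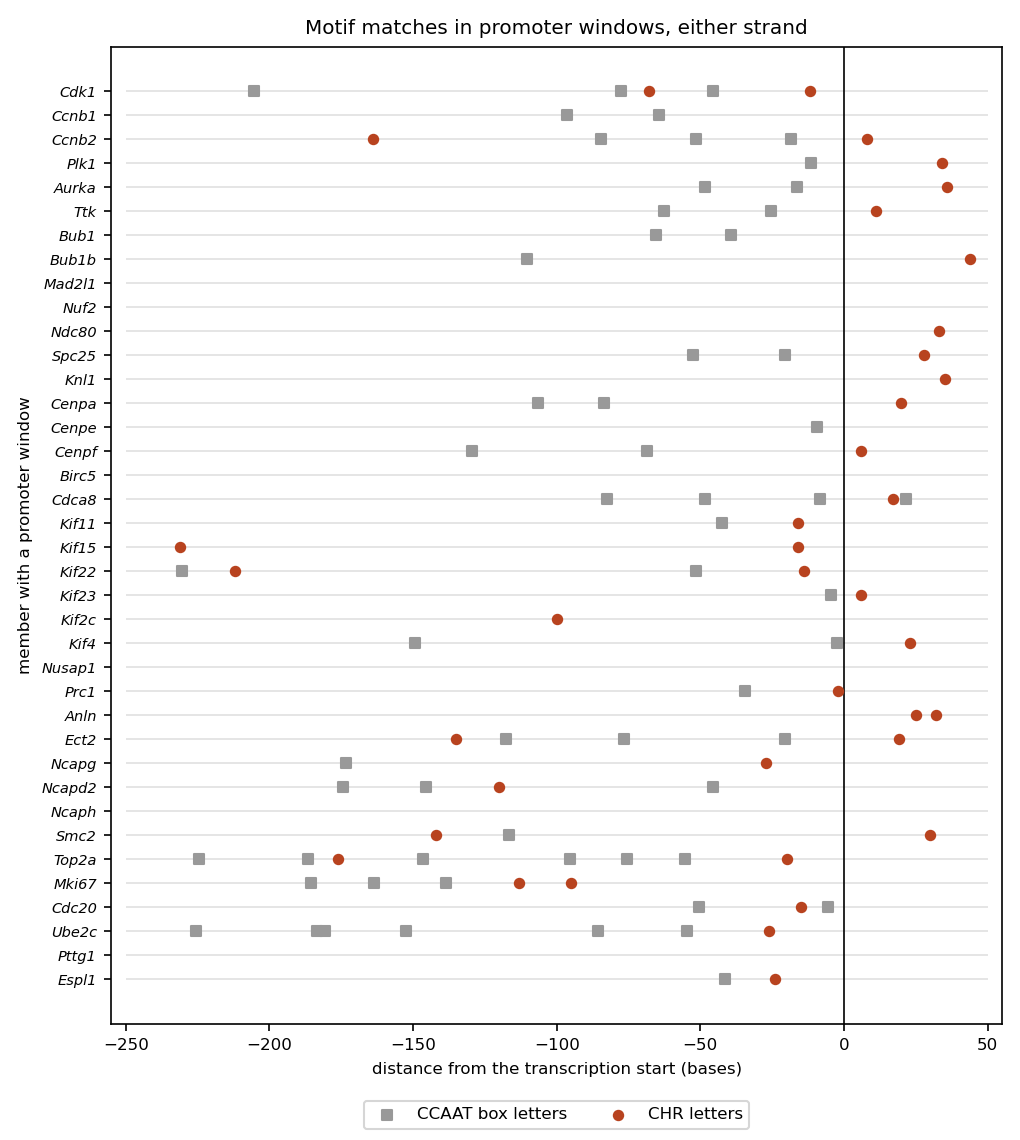
Matches to TTTGAA (CHR letters, circles) and CCAAT (squares) on either strand, by distance in bases from the transcription start, for the 38 members with a promoter window; for *Prc1* and *Ect2*, which have 2 windows, the first is drawn. Most TTTGAA matches lie close to the start, and 9 members, *Birc5*, *Cenpe* and *Pttg1* among them, have none.

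The libraries held 25281955 to 33673552 estimated counts, and replicates of a group correlated at 0.987 to 0.992 across genes. Whole-gene *Ncoa6* counts were 1515 and 1405 in *Ncoa6*-sufficient and 784 and 622 in *Ncoa6*-KO medium libraries, a log2 fold change of -1.05 (SE 0.117, adjusted p = 0.00236). With LPS + MSU they were 1297 and 1173 against 563 and 526 (log2 fold change -1.18, SE 0.124, adjusted p = 0.00189). The macrophage markers *Adgre1*, *Csf1r*, *Cd68* and *Itgam* were abundant in all 8 libraries, and none of 7 T and NK cell markers passed the count limit.

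The 45 genes together took up 0.473% and 0.474% of all counts in the *Ncoa6*-sufficient medium libraries and 0.366% and 0.378% in the *Ncoa6*-KO medium libraries. After LPS + MSU they took up 0.109% and 0.126% in *Ncoa6*-sufficient and 0.0950% and 0.0928% in *Ncoa6*-KO libraries. These shares did not overlap between any of the groups. Levels were also put on a per-length scale, as normalized counts per kilobase of exon, with the exons of all annotated transcripts of a gene merged. The merged length can exceed that of the transcript in the cells, so the order of members depends in part on the annotation. Highest on this scale in *Ncoa6*-sufficient cells with medium alone were *Mki67*, which coats mitotic chromosomes (1659), the cyclin *Ccnb2* (1406) and the passenger subunit *Incenp* (1152). Next came the decatenating enzyme *Top2a* (948) and the anaphase activator *Cdc20* (897). Lowest on it was the checkpoint kinase *Ttk* (98.9). The order changed with stimulation: *Pttg1*, the separase inhibitor securin, went from place 38 of 45 (213 per kilobase) to place 1 (1247 per kilobase), and *Cdc20* went from place 5 to place 31 (91.7 per kilobase). Replicates of a member differed little with medium alone, with a median SD of 3.78% of the mean in *Ncoa6*-sufficient and 4.56% in *Ncoa6*-KO cells (n = 2 each). After LPS + MSU the median SD was 12.2% and 7.28%, and the widest was that of *Cenpf* in *Ncoa6*-sufficient cells, at 50.02% of the mean.

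**Figure D2:**
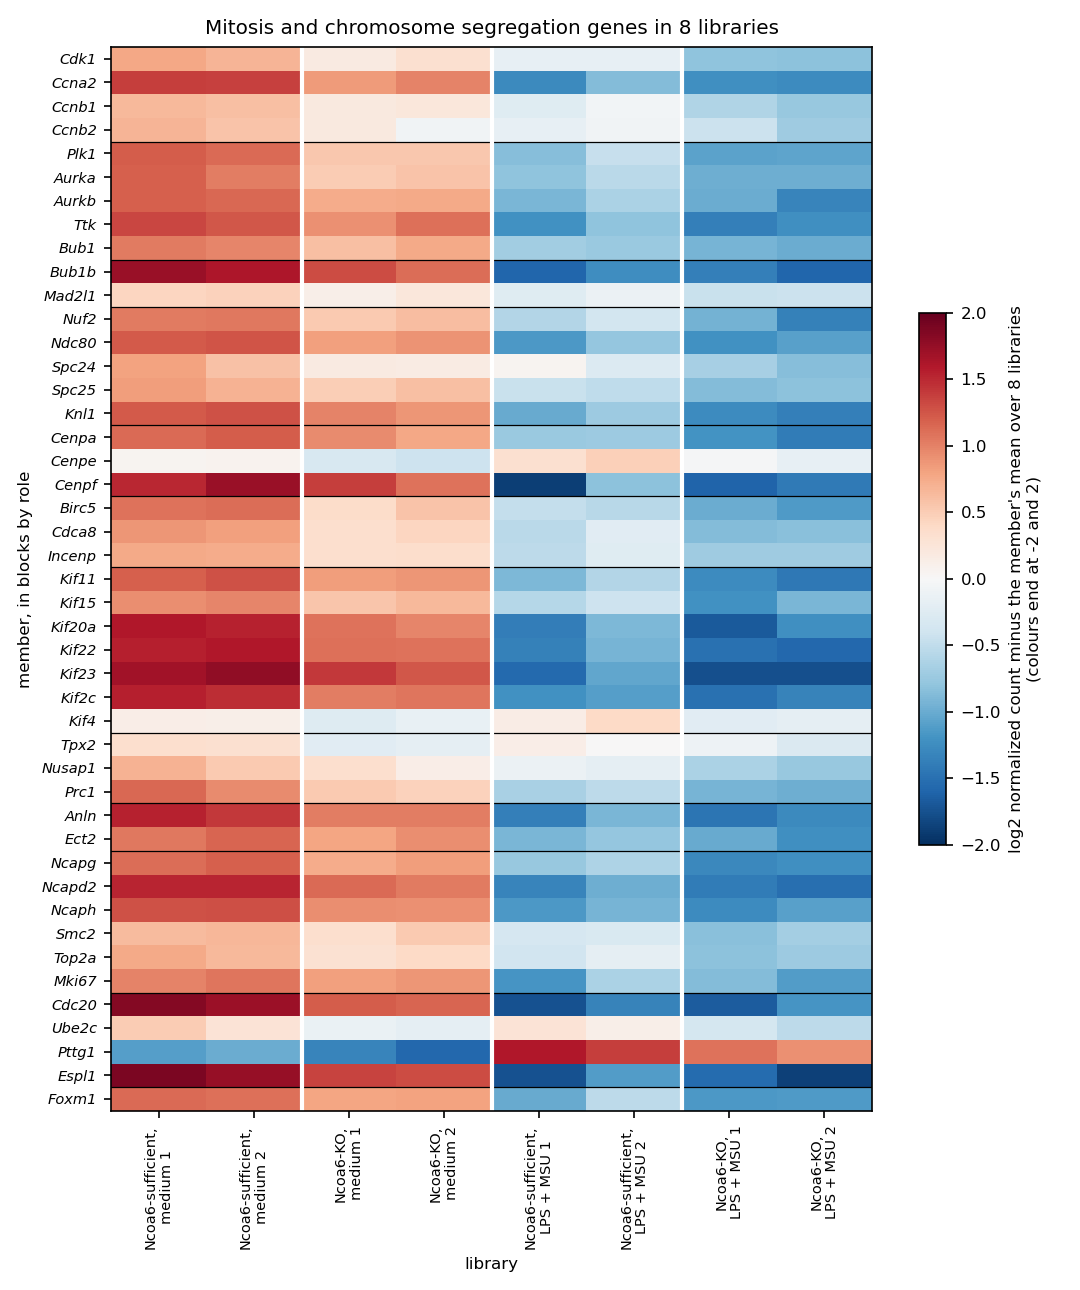
Log2 normalized count of each of the 45 members (rows, in blocks by role) in each of the 8 libraries (columns), minus the member's mean over the libraries, with red above and blue below that mean and colours ending at -2 and 2. Most rows run from red in medium alone to blue after LPS + MSU and are paler in *Ncoa6*-KO medium libraries than in *Ncoa6*-sufficient ones, while *Pttg1* runs the other way and *Cenpe*, *Kif4*, *Tpx2* and *Ube2c* change little.

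Most of the mitotic genes were lower after stimulation. In *Ncoa6*-sufficient cells 41 of the 45 members fell after LPS + MSU, 2 rose (*Pttg1* and *Cenpe*) and 2 did not pass the test (*Kif4* and *Ube2c*), at an adjusted p under 0.05 in edgeR's quasi-likelihood test. Of all genes tested, 55.2% passed in this comparison, 30.5% lower and 24.7% higher. In *Ncoa6*-KO cells 40 fell, the same 2 rose, and *Kif4*, *Ube2c* and *Tpx2* did not pass, where 53.1% of all genes passed, 27.9% lower and 25.2% higher. The median log2 fold change of the members was -1.81 in *Ncoa6*-sufficient cells, which leaves 28.5% of the medium level, and -1.71 in *Ncoa6*-KO cells, which leaves 30.6%. The medians of all genes tested were -0.12 and -0.07. The deepest falls in *Ncoa6*-sufficient cells were those of *Cdc20* (log2 fold change -3.29), *Espl1*, the separase (-3.21), *Bub1b*, the checkpoint protein BUBR1 (-3.08), *Kif23*, the midzone kinesin (-3.00), and *Cenpf* (-2.87). In bulk RNA, fewer cells in G2 and M cannot be told apart from less mitotic RNA in each cell.

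Depth scaling matters for this comparison. With total counts in place of TMM factors the median of all genes moved to -0.78 in *Ncoa6*-sufficient and -0.71 in *Ncoa6*-KO cells, and the median of the members to -2.48 and -2.35. Relative to all genes the members were at -1.69 with TMM and -1.70 with total counts in *Ncoa6*-sufficient cells, and at -1.64 with both in *Ncoa6*-KO cells.

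**Figure D3:**
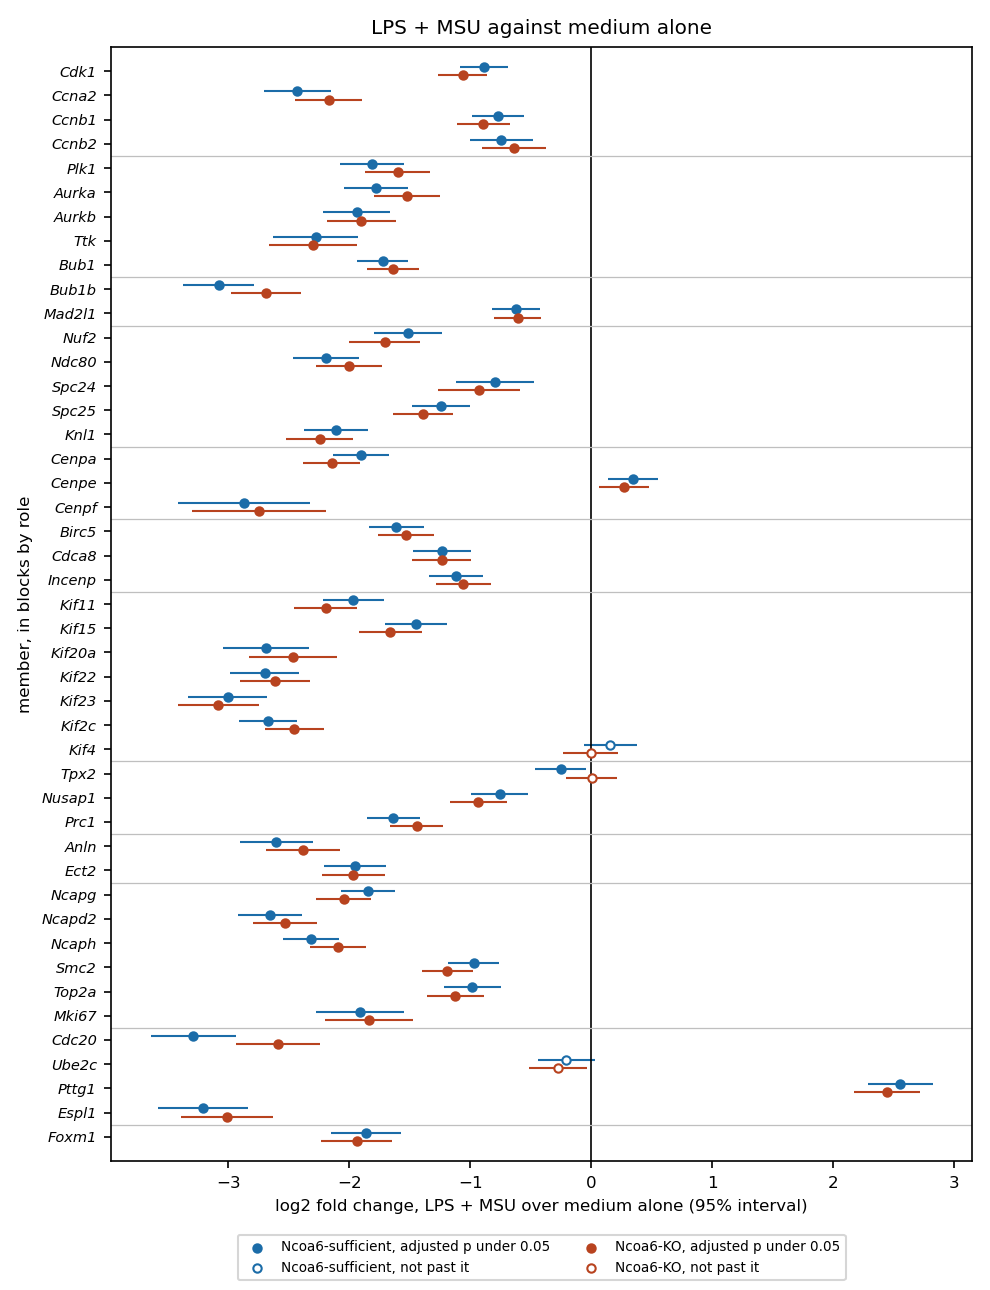
Log2 fold change of each member after LPS + MSU over medium alone, with its 95% interval, in *Ncoa6*-sufficient (blue) and *Ncoa6*-KO (red) cells, filled where the adjusted p was under 0.05; members are in blocks by role. The points lie between -3.29 and 2.55, the intervals of both genotypes overlap for most members, and *Pttg1* and *Cenpe* lie to the right of 0.

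Mitotic transcripts were lower in *Ncoa6*-KO cells in both culture conditions, by a smaller step than that of stimulation. With medium alone, all 45 members had a negative log2 fold change in *Ncoa6*-KO against *Ncoa6*-sufficient cells, from -0.63 to -0.18 with a median of -0.41, which is 75.1% of the *Ncoa6*-sufficient level. Both *Ncoa6*-KO libraries lay below both *Ncoa6*-sufficient libraries for all 45, where 24.5% of all genes tested did so. The test was passed by 10 members, all lower: *Birc5*, *Cdca8*, *Cdk1*, *Ube2c*, *Aurka*, *Ccnb2*, *Kif2c*, *Plk1*, *Prc1* and *Tpx2*. Of all genes tested, 1.88% passed, 1.3% lower and 0.573% higher, and at an unadjusted p under 0.05, 41 members were lower against 7.86% of all genes. With LPS + MSU, 44 of 45 log2 fold changes were negative, from -0.67 to 0.12 with a median of -0.40 (75.9%), and 35 members showed no overlap, where 22.7% of all genes did. Here 16 members passed, all lower, against 3.59% of all genes (1.63% lower and 1.96% higher), and 32 were lower at an unadjusted p under 0.05 against 8.16%. The 16 at an adjusted p under 0.05 were *Birc5*, *Cdca8*, *Cdk1* and *Ube2c* again, and *Ccnb1*, *Cenpa*, *Cenpe*, *Kif11*, *Kif15*, *Kif4*, *Ncapg*, *Nuf2*, *Nusap1*, *Pttg1*, *Smc2* and *Top2a*. The medians of all genes were -0.03 and 0.00. A further 23 members passed in neither condition, among them *Mki67*, *Bub1b*, *Cdc20*, *Aurkb* and *Foxm1*.

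The calls between genotypes depended on single libraries. The 45 members were read in the same libraries and are not replicates of one another. With medium alone no member's libraries overlapped between genotypes, so leaving 1 out left little room for a sign to turn. With 1 library left out at a time, the count for medium alone was 0 or 1 without *Ncoa6*-sufficient medium library 1 or 2, 3 or 2 without *Ncoa6*-KO medium library 1 or 2, 4 without either stimulated *Ncoa6*-KO library and 7 without either stimulated *Ncoa6*-sufficient library, while all 45 values stayed negative. The share of all genes called was 0.125% and 0.528% in the first pair of these fits and at most 2.11% in the others. For LPS + MSU it was 1 or 4 without stimulated *Ncoa6*-sufficient library 1 or 2, 7 or 0 without stimulated *Ncoa6*-KO library 1 or 2, 9 without either *Ncoa6*-sufficient medium library and 17 without either *Ncoa6*-KO medium library, with 38 to 45 values negative, and the share of all genes called ran from 0.329% to 4.32%. A fit on the 4 stimulated libraries alone called 1 member and 0.789% of all genes. No genotype call for a single gene held in all 8 of these fits. An exact permutation of 2 against 2 libraries cannot go below p = 0.333.

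**Figure D4:**
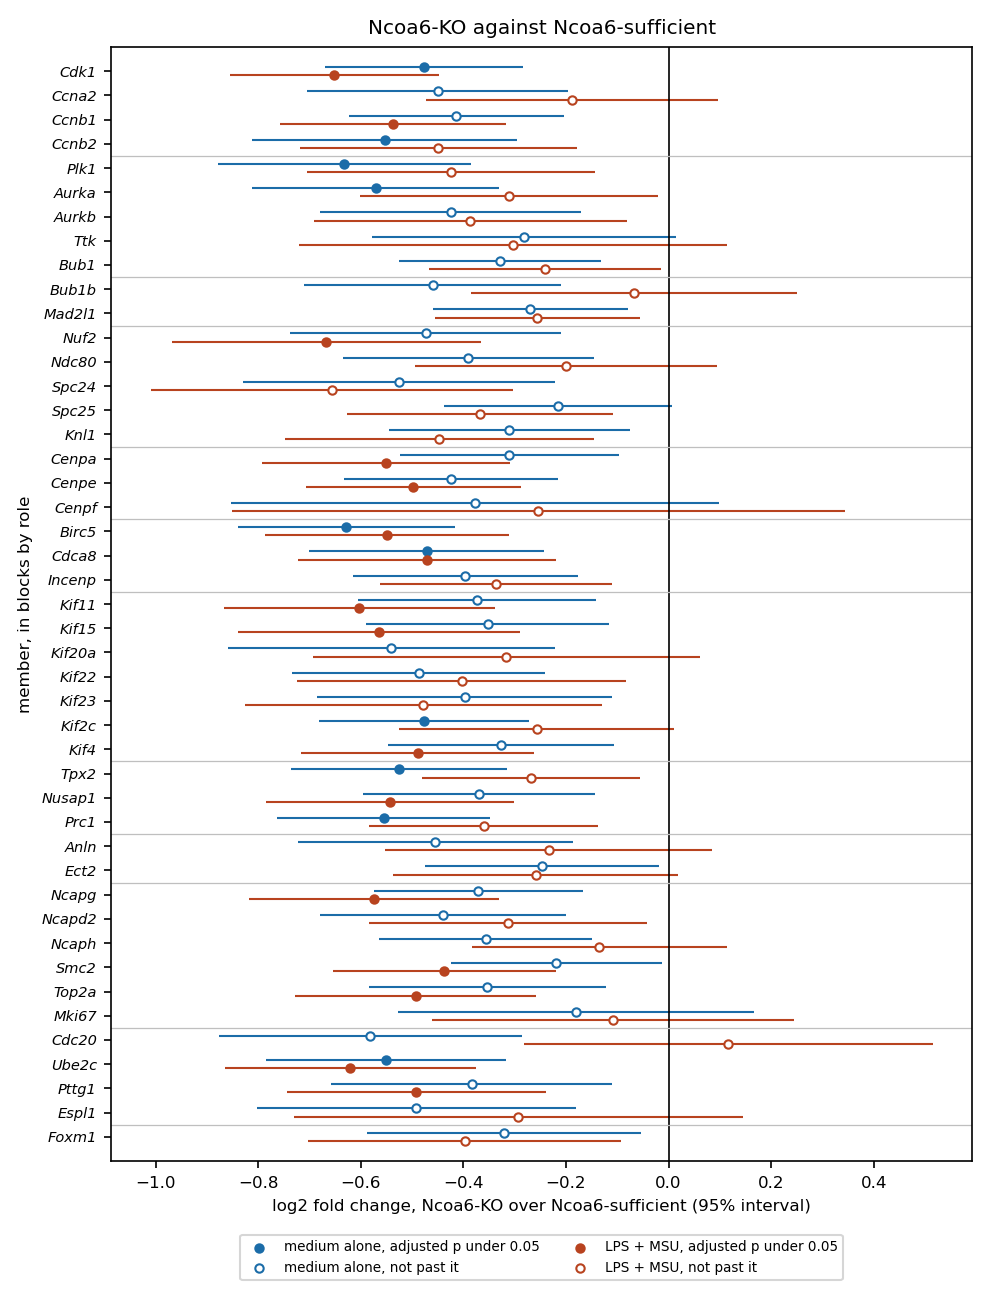
Log2 fold change of each member in *Ncoa6*-KO over *Ncoa6*-sufficient cells, with its 95% interval, with medium alone (blue) and with LPS + MSU (red), filled where the adjusted p was under 0.05; members are in blocks by role. All points but that of *Cdc20* with LPS + MSU (0.12) lie to the left of 0, between -0.67 and -0.07.

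No member's response to stimulation differed between the genotypes past the threshold. In edgeR's test of the interaction, the difference between the genotype effects with LPS + MSU and with medium alone, 0 of 45 members and 0% of all genes tested passed, and 1 member passed at an unadjusted p under 0.05, where 5.93% of all genes did. DESeq2 and limma also called 0 members, with 0.244% and 0% of all genes called. The member at an unadjusted p under 0.05 was *Cdc20*, with an interaction of 0.70 on the log2 scale (95% interval 0.20 to 1.19, adjusted p = 0.642). Its adjusted p was 0.0365 with no count filter. The interaction estimates had a median of 0.01 and were within 0.3 of 0 for 43 members, and the median half-width of their 95% intervals was 0.36. Differences of that size between the genotypes' responses could not be detected here.

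*Cdk1*, the first of 4 genes for CDK1 and its cyclins, encodes the kinase that starts mitosis. *Cdk1* had 2775 and 2597 normalized counts in the *Ncoa6*-sufficient medium libraries, 1834 and 2029 in the *Ncoa6*-KO medium libraries, 1448 and 1456 in the stimulated *Ncoa6*-sufficient libraries and 927 and 922 in the stimulated *Ncoa6*-KO libraries. The 4 groups did not overlap, and the gene fell with LPS + MSU in both genotypes (log2 fold change -0.89, SE 0.0894, adjusted p = 6.37e-06 in *Ncoa6*-sufficient; -1.06, SE 0.0912, adjusted p = 1.84e-06 in *Ncoa6*-KO). *Cdk1* was lower in *Ncoa6*-KO cells with medium alone (log2 fold change -0.48, SE 0.0875, adjusted p = 0.025) and with LPS + MSU (log2 fold change -0.65, SE 0.0922, adjusted p = 0.00574), where it had the smallest adjusted p of the members. *Ccnb1* and *Ccnb2* encode the B-type cyclins that switch CDK1 on. *Ccnb1* went from 2617 and 2557 normalized counts in medium to 1413 and 1621 after stimulation in *Ncoa6*-sufficient cells, and from 1929 and 1956 to 1103 and 988 in *Ncoa6*-KO cells. *Ccnb2* stood at 2232 and 2073 normalized counts in *Ncoa6*-sufficient and 1598 and 1334 in *Ncoa6*-KO libraries without stimulation, and at 1245 and 1326 against 1035 and 848 with it. Both fell on stimulation in *Ncoa6*-sufficient cells, to 58.6% and 59.7% of the medium level. *Ccnb1* was lower in *Ncoa6*-KO cells with LPS + MSU (log2 fold change -0.54, SE 0.0997, adjusted p = 0.0178) and *Ccnb2* with medium alone (log2 fold change -0.55, SE 0.117, adjusted p = 0.0417). *Ccna2*, the cyclin of S phase and early mitosis, fell further than either B cyclin, with a log2 fold change of -2.43 in *Ncoa6*-sufficient and -2.17 in *Ncoa6*-KO cells. Its exons overlap those of *Exosc9* on the other strand by 510 bases.

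All 5 mitotic kinase genes fell on stimulation in both genotypes. *Plk1* encodes the Polo-like kinase of centrosome maturation and mitotic entry. *Plk1* went from 1939 and 1853 normalized counts in medium to 467 and 614 after stimulation in *Ncoa6*-sufficient cells, and from 1225 and 1221 to 399.9 and 406 in *Ncoa6*-KO cells. It had the largest genotype difference with medium alone (log2 fold change -0.63, SE 0.112, adjusted p = 0.0227), while with LPS + MSU the value was -0.42 (adjusted p = 0.105). *Aurka* encodes the Aurora kinase of the spindle poles. *Aurka* stood at 1015 and 899.8 normalized counts in *Ncoa6*-sufficient and 629 and 660.3 in *Ncoa6*-KO libraries without stimulation, and at 254 and 303 against 225 and 224 with it. It was lower in *Ncoa6*-KO cells with medium alone (log2 fold change -0.57, SE 0.109, adjusted p = 0.029) and not past the test with LPS + MSU (adjusted p = 0.25). *Aurkb*, the catalytic subunit of the passenger complex, corrects wrong attachments. *Aurkb* had 1322 and 1277 normalized counts in the *Ncoa6*-sufficient medium libraries, 960.1 and 976 in the *Ncoa6*-KO medium libraries, 305 and 372 in the stimulated *Ncoa6*-sufficient libraries and 288 and 229 in the stimulated *Ncoa6*-KO libraries. It fell to 26.0% in *Ncoa6*-sufficient cells, and its genotype values of -0.42 and -0.39 did not pass. The checkpoint kinases *Bub1* and *Ttk* fell by 1.73 and 2.28 on the log2 scale in *Ncoa6*-sufficient cells and passed in neither genotype comparison.

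The spindle checkpoint genes *Bub1b* and *Mad2l1* encode BUBR1 and MAD2, 2 parts of the inhibitor that checks the anaphase-promoting complex, and they differed widely in their response. *Bub1b* went from 2349.9 and 2176 normalized counts in medium to 237 and 297 after stimulation in *Ncoa6*-sufficient cells, and from 1751 and 1538 to 273 and 236 in *Ncoa6*-KO cells. *Bub1b* fell to 11.8% in *Ncoa6*-sufficient (log2 fold change -3.08, SE 0.132, adjusted p = 7.53e-09) and to 15.5% in *Ncoa6*-KO cells. *Mad2l1* fell only to 64.9% and 65.5%. The *Bub1b* libraries of both genotypes overlapped after stimulation, and neither gene passed a genotype comparison.

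In the outer kinetochore, NDC80, NUF2, SPC24 and SPC25 form the NDC80 complex that grips microtubules, and KNL1 is the scaffold for checkpoint proteins. All 5 genes fell on stimulation. *Ndc80* had 1571 and 1611 normalized counts in the *Ncoa6*-sufficient medium libraries, 1180.5 and 1248 in the *Ncoa6*-KO medium libraries, 302 and 394 in the stimulated *Ncoa6*-sufficient libraries and 290.1 and 316 in the stimulated *Ncoa6*-KO libraries. *Nuf2* went from 1659 and 1668 normalized counts in medium to 538 and 627 after stimulation in *Ncoa6*-sufficient cells, and from 1158 and 1239.9 to 417 and 315 in *Ncoa6*-KO cells. *Ndc80* fell to 21.9% and *Nuf2* to 35.0% of the medium level in *Ncoa6*-sufficient cells. *Nuf2* had the largest genotype difference with LPS + MSU (log2 fold change -0.67, SE 0.136, adjusted p = 0.0258). *Spc24* was almost as far down in *Ncoa6*-KO cells (-0.66) but just missed the threshold (adjusted p = 0.0508). *Spc24* and *Spc25* fell on stimulation by 0.80 and 1.24 on the log2 scale in *Ncoa6*-sufficient cells and *Knl1* by 2.11.

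At the centromere, *Cenpa* encodes the histone H3 variant that marks centromeres. *Cenpa* went from 2499 and 2655 normalized counts in medium to 682 and 694 after stimulation in *Ncoa6*-sufficient cells, and from 2207 and 1949 to 502 and 437 in *Ncoa6*-KO cells. It fell to 26.7% in *Ncoa6*-sufficient and 22.6% in *Ncoa6*-KO cells, and was lower in *Ncoa6*-KO cells with LPS + MSU (log2 fold change -0.55, SE 0.109, adjusted p = 0.0228). *Cenpe* encodes a kinetochore kinesin that carries chromosomes to the spindle equator. *Cenpe* had 3133 and 3187 normalized counts in the *Ncoa6*-sufficient medium libraries, 2431 and 2280.5 in the *Ncoa6*-KO medium libraries, 3802 and 4219.6 in the stimulated *Ncoa6*-sufficient libraries and 2971 and 2711 in the stimulated *Ncoa6*-KO libraries. These counts were higher after stimulation in both genotypes (log2 fold change 0.34, SE 0.0943, adjusted p = 0.00914 in *Ncoa6*-sufficient; 0.27, adjusted p = 0.0326 in *Ncoa6*-KO), but with total counts in place of TMM factors *Cenpe* was lower, at -0.33 and -0.36. The *Ncoa6*-sufficient call was lost without *Ncoa6*-sufficient medium library 1, at 0.33, and the *Ncoa6*-KO call without *Ncoa6*-KO medium library 2 (0.22) or stimulated *Ncoa6*-KO library 1 (0.19), with no count filter (0.25) and with only the libraries compared (0.27). *Cenpe* was lower in *Ncoa6*-KO cells with LPS + MSU (log2 fold change -0.50, SE 0.0951, adjusted p = 0.0199). *Cenpf*, a large protein of the kinetochore corona, fell by 2.87 and 2.75 on the log2 scale, with counts of 194 and 406 in the stimulated *Ncoa6*-sufficient libraries.

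In the chromosomal passenger complex, survivin, borealin and INCENP, encoded by *Birc5*, *Cdca8* and *Incenp*, place Aurora B at centromeres and then at the midzone. *Birc5* stood at 1972 and 2030.1 normalized counts in *Ncoa6*-sufficient and 1209 and 1382 in *Ncoa6*-KO libraries without stimulation, and at 673 and 636 against 470.5 and 424 with it. *Birc5* fell to 32.7% on stimulation in *Ncoa6*-sufficient cells. It was lower in *Ncoa6*-KO cells with medium alone (log2 fold change -0.63, SE 0.0962, adjusted p = 0.0111), with the smallest adjusted p of the members there, and with LPS + MSU (log2 fold change -0.55, SE 0.108, adjusted p = 0.0215). *Cdca8* went from 1841 and 1771 normalized counts in medium to 684 and 848 after stimulation in *Ncoa6*-sufficient cells, and from 1265 and 1341 to 545 and 561 in *Ncoa6*-KO cells. *Cdca8* also passed in both genotype comparisons, at -0.47 and -0.47 (adjusted p = 0.048 and 0.0488). *Incenp* fell to 46.1% on stimulation and did not pass between genotypes (-0.40 and -0.34).

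Of the 7 mitotic kinesins, 6 fell on stimulation in both genotypes. *Kif2c* encodes MCAK, which strips tubulin from microtubule ends, and had the smallest adjusted p of all members for stimulation. *Kif2c* had 1367 and 1295 normalized counts in the *Ncoa6*-sufficient medium libraries, 943 and 970.3 in the *Ncoa6*-KO medium libraries, 201 and 216 in the stimulated *Ncoa6*-sufficient libraries and 165 and 185 in the stimulated *Ncoa6*-KO libraries. It fell to 15.7% in *Ncoa6*-sufficient (log2 fold change -2.67, SE 0.108, adjusted p = 4.76e-09) and 18.3% in *Ncoa6*-KO cells, and was lower in *Ncoa6*-KO cells with medium alone (log2 fold change -0.48, SE 0.0929, adjusted p = 0.0308). *Kif11* and *Kif15* encode the motors that push spindle poles apart. *Kif11* went from 2647 and 2803 normalized counts in medium to 623 and 769.8 after stimulation in *Ncoa6*-sufficient cells, and from 2066 and 2142 to 486 and 431 in *Ncoa6*-KO cells. *Kif15* stood at 1206 and 1246 normalized counts in *Ncoa6*-sufficient and 929 and 991 in *Ncoa6*-KO libraries without stimulation, and at 424 and 474 against 272 and 336 with it. Both were lower in *Ncoa6*-KO cells with LPS + MSU (-0.60, adjusted p = 0.0227, and -0.56, adjusted p = 0.0347) and did not pass with medium alone. *Kif22* encodes the chromosome-arm motor KID and *Kif23* the MKLP1 subunit of centralspindlin. *Kif22* had 1503 and 1541 normalized counts in the *Ncoa6*-sufficient medium libraries, 1091 and 1079 in the *Ncoa6*-KO medium libraries, 199 and 269 in the stimulated *Ncoa6*-sufficient libraries and 182 and 172 in the stimulated *Ncoa6*-KO libraries. *Kif23* went from 3353 and 3548 normalized counts in medium to 353 and 507 after stimulation in *Ncoa6*-sufficient cells, and from 2785 and 2454 to 308 and 309 in *Ncoa6*-KO cells. *Kif22* fell to 15.4% and *Kif23* to 12.5% in *Ncoa6*-sufficient cells. *Kif20a*, the midzone motor MKLP2, fell to 15.5%, and its exons share 1271 bases with *Cdc23* on the other strand.

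*Kif4* encodes the chromokinesin KIF4A, which acts with condensin and PRC1, and it was the 1 motor of the 7 that did not fall. *Kif4* had 1247 and 1223 normalized counts in the *Ncoa6*-sufficient medium libraries, 949 and 1021 in the *Ncoa6*-KO medium libraries, 1258 and 1496 in the stimulated *Ncoa6*-sufficient libraries and 964 and 998 in the stimulated *Ncoa6*-KO libraries. Its log2 fold change on stimulation was 0.16 in *Ncoa6*-sufficient cells (95% interval -0.06 to 0.38, adjusted p = 0.211) and -0.01 in *Ncoa6*-KO cells (-0.23 to 0.22), and with total counts in place of TMM factors it was -0.51 and -0.64. In *Ncoa6*-sufficient cells it passed as higher with DESeq2's size factors in edgeR (0.27) and without stimulated *Ncoa6*-sufficient library 1 (0.32). *Kif4* was lower in *Ncoa6*-KO cells with LPS + MSU (log2 fold change -0.49, SE 0.103, adjusted p = 0.0291). *Kif4* exons share 832 bases with *Pdzd11* on the other strand.

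**Figure D5:**
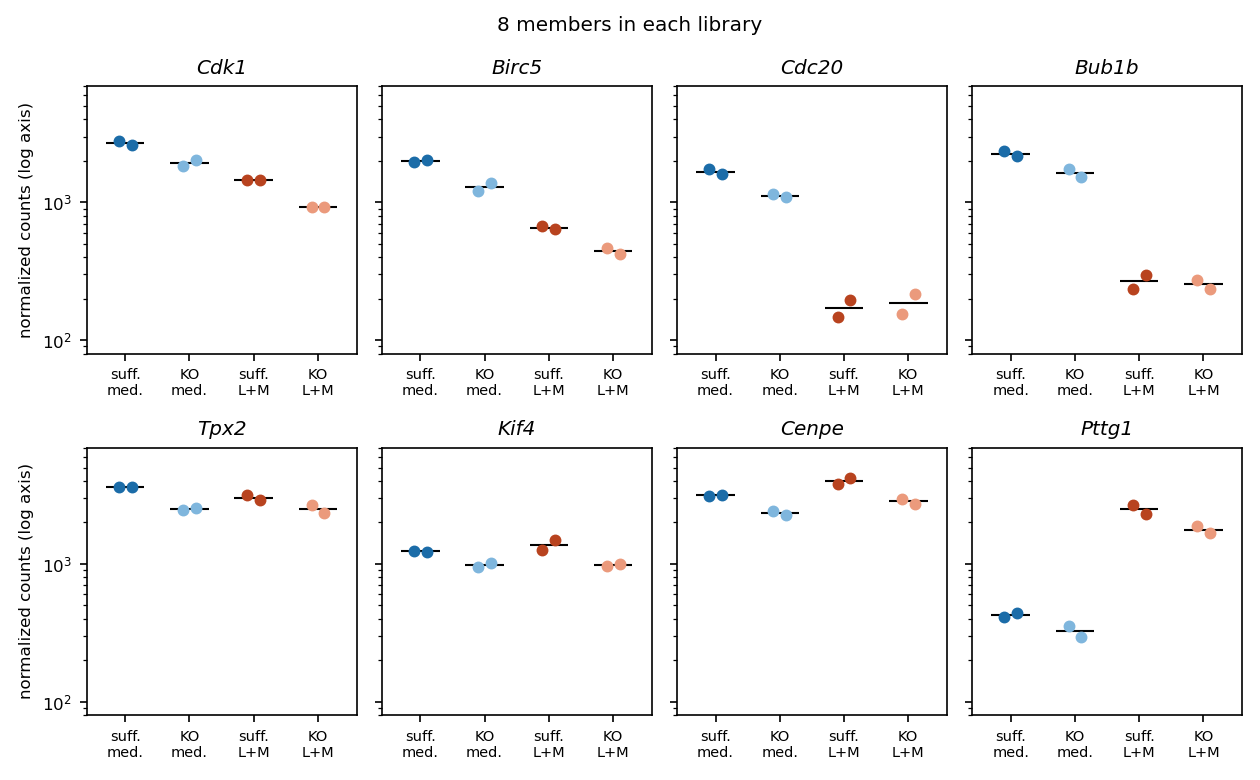
Normalized counts on a log axis of 8 members in each library (points) with the mean of each pair (bars), for *Ncoa6*-sufficient (suff.) and *Ncoa6*-KO (KO) cells with medium alone (med.) and with LPS + MSU (L+M). *Cdk1* and *Birc5* step down with both stimulation and genotype, *Cdc20* and *Bub1b* fall to overlapping levels in both genotypes, *Tpx2*, *Kif4* and *Cenpe* move little with stimulation, and *Pttg1* rises.

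Among the factors of spindle assembly, midzone and cytokinesis, TPX2 nucleates spindle microtubules and activates Aurora A. *Tpx2* went from 3634 and 3592 normalized counts in medium to 3157 and 2903 after stimulation in *Ncoa6*-sufficient cells, and from 2474 and 2547 to 2686 and 2346 in *Ncoa6*-KO cells. Stimulation moved *Tpx2* little: it fell to 83.9% in *Ncoa6*-sufficient cells (log2 fold change -0.25, SE 0.0954, adjusted p = 0.0419), a call that was lost without any 1 of 6 libraries (both *Ncoa6*-sufficient medium, both stimulated *Ncoa6*-sufficient and both stimulated *Ncoa6*-KO libraries, -0.27 to -0.15) and with DESeq2 or its size factors (-0.14), edgeR's own count filter or only the libraries compared (-0.22 each). In *Ncoa6*-KO cells the value was 0.00 (95% interval -0.21 to 0.22), and -0.63 with total counts. *Tpx2* was lower in *Ncoa6*-KO cells with medium alone (log2 fold change -0.53, SE 0.0952, adjusted p = 0.0238). *Prc1* bundles the antiparallel microtubules of the midzone. *Prc1* stood at 3425 and 2989 normalized counts in *Ncoa6*-sufficient and 2231 and 2135 in *Ncoa6*-KO libraries without stimulation, and at 989 and 1073 against 815 and 790.5 with it. It fell to 32.1% on stimulation in *Ncoa6*-sufficient cells and was lower in *Ncoa6*-KO cells with medium alone (log2 fold change -0.56, SE 0.0942, adjusted p = 0.0193). Its exons share 911 bases with *Rccd1* on the other strand. *Nusap1*, a microtubule stabilizer near chromosomes, had 1034 and 983 counts in stimulated *Ncoa6*-sufficient and 719 and 665 in stimulated *Ncoa6*-KO libraries, against 1808 and 1603 and 1417 and 1224 with medium alone. It passed between genotypes with LPS + MSU (log2 fold change -0.54, SE 0.110, adjusted p = 0.0244). *Anln* encodes anillin, the scaffold of the contractile ring. *Anln* had 2649 and 2439.6 normalized counts in the *Ncoa6*-sufficient medium libraries, 1860.3 and 1854 in the *Ncoa6*-KO medium libraries, 353 and 483 in the stimulated *Ncoa6*-sufficient libraries and 333 and 379 in the stimulated *Ncoa6*-KO libraries. It fell to 16.4% in *Ncoa6*-sufficient cells, and *Ect2*, the RhoA activator that places the ring, to 25.8%. Neither passed between genotypes.

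All 6 genes of condensin and chromosome structure fell on stimulation in both genotypes. *Ncapg*, *Ncapd2* and *Ncaph* encode subunits particular to condensin I, and *Smc2* a core subunit of both condensins. *Ncapd2* went from 4011 and 4038 normalized counts in medium to 559.7 and 715 after stimulation in *Ncoa6*-sufficient cells, and from 3062 and 2871 to 535 and 491 in *Ncoa6*-KO cells. *Ncaph* stood at 1743 and 1768 normalized counts in *Ncoa6*-sufficient and 1381 and 1362 in *Ncoa6*-KO libraries without stimulation, and at 327 and 379 against 303 and 340.0 with it. These fell to 15.8% and 20.1% in *Ncoa6*-sufficient cells with the medium and stimulated libraries far apart, and passed in neither genotype comparison. *Ncapg* had 1331 and 1404 normalized counts in the *Ncoa6*-sufficient medium libraries, 1028 and 1088 in the *Ncoa6*-KO medium libraries, 360.2 and 401 in the stimulated *Ncoa6*-sufficient libraries and 251 and 260.2 in the stimulated *Ncoa6*-KO libraries. *Ncapg* was lower in *Ncoa6*-KO cells with LPS + MSU (log2 fold change -0.57, SE 0.110, adjusted p = 0.0201), and its exons share 944 bases with *Lcorl* on the other strand. *Smc2* went from 2550.3 and 2596 normalized counts in medium to 1305 and 1321 after stimulation in *Ncoa6*-sufficient cells, and from 2074 and 2351 to 920.0 and 1019.9 in *Ncoa6*-KO cells. *Smc2*, whose product also serves interphase cells, fell less, to 51.0%, and was lower in *Ncoa6*-KO cells with LPS + MSU (log2 fold change -0.44, SE 0.0984, adjusted p = 0.0372). *Top2a* and *Mki67* are the usual marks of cycling cells. *Top2a* stood at 8878 and 8204 normalized counts in *Ncoa6*-sufficient and 6443 and 6933 in *Ncoa6*-KO libraries without stimulation, and at 4004 and 4634 against 2965 and 3172 with it. *Mki67* had 16216 and 17166 normalized counts in the *Ncoa6*-sufficient medium libraries, 14409 and 15046 in the *Ncoa6*-KO medium libraries, 3608 and 5269 in the stimulated *Ncoa6*-sufficient libraries and 4466 and 3768 in the stimulated *Ncoa6*-KO libraries. *Top2a* fell to 50.6% and *Mki67* to 26.6% in *Ncoa6*-sufficient cells. Between genotypes *Top2a* passed with LPS + MSU (log2 fold change -0.49, SE 0.106, adjusted p = 0.0327), while *Mki67* had the smallest difference of all members with medium alone (-0.18, 95% interval -0.53 to 0.17) and -0.11 with LPS + MSU.

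At anaphase, CDC20 activates the anaphase-promoting complex, UBE2C is its ubiquitin-conjugating enzyme, securin (*Pttg1*) is its substrate, and separase (*Espl1*) is the protease that securin holds back. On stimulation 2 of these 4 genes fell, 1 rose and 1 did not pass. *Cdc20* went from 1746 and 1604 normalized counts in medium to 147 and 196 after stimulation in *Ncoa6*-sufficient cells, and from 1142 and 1097 to 156 and 217 in *Ncoa6*-KO cells. *Cdc20* fell to 10.2% in *Ncoa6*-sufficient and 16.6% in *Ncoa6*-KO cells (log2 fold change -3.29, SE 0.160, adjusted p = 1.95e-08, and -2.59, SE 0.158, adjusted p = 1.11e-07). *Espl1* fell to 10.8% and 12.4%. *Pttg1* had 409 and 441 normalized counts in the *Ncoa6*-sufficient medium libraries, 354 and 296 in the *Ncoa6*-KO medium libraries, 2682 and 2305 in the stimulated *Ncoa6*-sufficient libraries and 1879 and 1668 in the stimulated *Ncoa6*-KO libraries. *Pttg1* rose in both genotypes, to 587% and 544% of the medium level (log2 fold change 2.55, SE 0.122, adjusted p = 1.7e-08, and 2.44, SE 0.124, adjusted p = 2.66e-08), with all stimulated libraries far above all medium libraries. *Ube2c* stood at 1614 and 1377 normalized counts in *Ncoa6*-sufficient and 1040.0 and 1002 in *Ncoa6*-KO libraries without stimulation, and at 1365 and 1226 against 891 and 793 with it. *Ube2c* did not pass on stimulation (-0.21, 95% interval -0.44 to 0.03, adjusted p = 0.124, and -0.28, -0.52 to -0.04, adjusted p = 0.0529). It was called lower in both genotypes under total counts (-0.88 and -0.91) and with either block for the replicate number (-0.21 and -0.28). In *Ncoa6*-KO cells it was also called lower with no count filter (-0.30), and the value was -0.37 without stimulated *Ncoa6*-KO library 1. *Ube2c* was lower in *Ncoa6*-KO cells in both conditions (log2 fold change -0.55, SE 0.106, adjusted p = 0.0298 with medium alone; log2 fold change -0.62, SE 0.111, adjusted p = 0.0148 with LPS + MSU), and its exons share 592 bases with *Tnnc2* on the other strand. *Pttg1* was lower in *Ncoa6*-KO cells with LPS + MSU (log2 fold change -0.49, SE 0.114, adjusted p = 0.0421).

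*Foxm1*, the transcription factor of the group, encodes a protein that joins MuvB to switch on G2/M genes. *Foxm1* went from 2055 and 2015 normalized counts in medium to 468 and 651 after stimulation in *Ncoa6*-sufficient cells, and from 1618 and 1641 to 423 and 427 in *Ncoa6*-KO cells. It fell to 27.5% and 26.1% on stimulation and did not pass between genotypes (-0.32, adjusted p = 0.269, and -0.40, adjusted p = 0.161). Of 21 genes for DREAM, MuvB, E2F and MYB factors, 14 fell and 2 rose in *Ncoa6*-sufficient cells and 14 fell and 3 rose in *Ncoa6*-KO cells. Of all genes tested, 30.5% fell and 24.7% rose in *Ncoa6*-sufficient cells, and 27.9% fell and 25.2% rose in *Ncoa6*-KO cells. *E2f2* fell (log2 fold change -5.08, SE 0.242, adjusted p = 1.63e-08 in *Ncoa6*-sufficient), and *Rbl2*, which encodes the DREAM pocket protein p130, also fell (-1.70). Between genotypes 0 of the 21 passed with medium alone (3 at an unadjusted p under 0.05). *Lin54*, the DNA-binding subunit of MuvB, was the 1 that passed with LPS + MSU (log2 fold change -0.50, SE 0.107, adjusted p = 0.0309). In these comparisons 1.88% and 3.59% of all genes passed, and 1 call among 21 genes is near the second share. Among the 38 members with a promoter window, a split made after the values were seen, the 29 with TTTGAA had a median log2 fold change on stimulation of -1.91 in *Ncoa6*-sufficient cells (from -3.29 to 0.16), and the 9 without it -0.77 (from -2.31 to 2.55). Between genotypes, the genes with and without it had medians of -0.40 and -0.38 in medium and of -0.40 and -0.50 after stimulation. These medians were not tested against each other.

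Of 56 other mitotic genes, 51 fell and 1 rose on stimulation in *Ncoa6*-sufficient cells (median -1.73). In *Ncoa6*-KO cells 49 fell and 1 rose (median -1.69), much as among the 45. *Cdca2*, a chromatin-bound phosphatase subunit, had the smallest adjusted p of the 56 (log2 fold change -3.93, SE 0.133, adjusted p = 1.49e-09 in *Ncoa6*-sufficient). For comparison, 30.5% of all genes tested fell and 24.7% rose in *Ncoa6*-sufficient cells, and 27.9% fell and 25.2% rose in *Ncoa6*-KO cells. The share of all genes that passed between genotypes was 1.88% with medium alone (1.3% lower) and 3.59% with LPS + MSU (1.63% lower). Between genotypes 6 of the 56 were lower and 0 higher with medium alone (median -0.38), with the smallest adjusted p for *Cdca3* (log2 fold change -0.54, SE 0.0791, adjusted p = 0.00933). With LPS + MSU 4 were lower and 1 higher (median -0.31), and the 1 higher was *Psrc1*, a microtubule protein and known p53 target, with 148 and 212 normalized counts in *Ncoa6*-sufficient and 459 and 708 in *Ncoa6*-KO libraries (log2 fold change 1.69, SE 0.216, adjusted p = 0.00411). Of 24 genes of DNA replication and G1/S, 19 fell and 1 rose in *Ncoa6*-sufficient cells (median -1.07) and 20 fell and 1 rose in *Ncoa6*-KO cells (median -1.19). The helicase subunit *Mcm7* had the smallest adjusted p in *Ncoa6*-sufficient cells (-2.35, adjusted p = 1.22e-07). Between genotypes 0 of these 24 passed with medium alone (2 at an unadjusted p under 0.05, median -0.10), and 2 were lower with LPS + MSU (*Rrm1* -0.40 and *Gins1* -0.71, median -0.17).

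Brakes and drivers of the cycle moved in both directions on stimulation, as did all genes tested. Of all genes, 30.5% fell and 24.7% rose in *Ncoa6*-sufficient cells, and 27.9% fell and 25.2% rose in *Ncoa6*-KO cells. Between genotypes, 1.88% of all genes passed with medium alone and 3.59% with LPS + MSU. Of 15 CDK inhibitors and G2 brakes, 6 rose and 5 fell on stimulation in *Ncoa6*-sufficient cells, and 7 rose and 4 fell in *Ncoa6*-KO cells. *Gadd45b*, a stress-induced brake (3.53), and *Cdkn1a*, which encodes p21 (2.75), rose in *Ncoa6*-sufficient cells, and *Cdkn2c* fell (-1.99). Between genotypes with medium alone, *Cdkn2a*, the gene of p16 and p19ARF (log2 fold change 0.85, SE 0.127, adjusted p = 0.00985), and *Cdkn1c*, the gene of p57 (log2 fold change 0.71, SE 0.138, adjusted p = 0.0298), were higher in *Ncoa6*-KO cells, and *Pkmyt1*, a kinase that inhibits CDK1, was lower (log2 fold change -0.51, SE 0.111, adjusted p = 0.0478). With LPS + MSU, *Cdkn1c*, *Cdkn2a*, *Cdkn2b* and *Cdkn1a* were higher in *Ncoa6*-KO cells (1.43, 1.07, 1.28 and 0.75), and *Btg2*, *Cdkn2d* and *Pkmyt1* were lower (-1.21, -0.77 and -0.51). *Cdkn1a* had 28692 and 30072 normalized counts in stimulated *Ncoa6*-sufficient and 43963 and 55139.8 in stimulated *Ncoa6*-KO libraries. Of 10 genes for G1 cyclins, their kinases, MYC and the M-CSF receptor, 3 rose and 6 fell in *Ncoa6*-sufficient and 3 rose and 5 fell in *Ncoa6*-KO cells. The D-type cyclin *Ccnd2* (5.06) and *Myc* (2.26) rose in *Ncoa6*-sufficient cells, while *Cdk2* (-2.66) fell. Between genotypes 0 of the 10 passed with medium alone (2 at an unadjusted p under 0.05) and *Ccnd3* was lower with LPS + MSU (-0.57). Of 16 anaphase-promoting complex genes 2 rose and 9 fell in *Ncoa6*-sufficient and 2 rose and 5 fell in *Ncoa6*-KO cells, and of 13 cohesin genes 3 rose and 8 fell in each genotype. Neither list had a gene past the test between genotypes in edgeR (at an unadjusted p under 0.05, 3 genes of the anaphase-promoting complex in medium and 1 after stimulation, and 2 cohesin genes in each condition).

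Marker genes of the macrophages and of other marrow cells also differed between genotypes. The summed normalized counts of 10 macrophage markers were 396833 to 464685 in *Ncoa6*-sufficient and 256246 to 295526 in *Ncoa6*-KO medium libraries, and 524606 to 595353 and 384152 to 410217 after LPS + MSU. With medium alone 3 of the 10 were lower in *Ncoa6*-KO cells (*Fcgr1*, *Lyz2* and *Cd14*), where 1.88% of all genes passed, and *Lyz2*, *Fcgr1* and *Itgam* were among those lower with LPS + MSU, where 3.59% did. *Lyz2*, the locus that carries LysM CRE, was the most abundant of the 10 and weighs most in their sums. Before normalization it had 362540 and 244000 counts in *Ncoa6*-sufficient and 183480 and 127539 in *Ncoa6*-KO medium libraries. *Csf1r*, the next most abundant there, had 78328 and 74359 against 79569 and 54775. These counts are not scaled for depth, and are given for abundance and not to compare genotypes. The *Ncoa6*-sufficient medium libraries held 31751186 and 27356093 estimated counts in all, and the *Ncoa6*-KO ones 33673552 and 25984619. The median log2 fold change of the 10 between genotypes was -0.33 in medium and -0.33 after stimulation. A sum that leaves out *Lyz2* was not tested. The 10 myeloid progenitor markers, 9 of them past the count limit, summed to 514 to 630 normalized counts in *Ncoa6*-sufficient and 986 to 1091 in *Ncoa6*-KO medium libraries, and to 288 to 331 and 485 to 495 after LPS + MSU. *Cd34* alone passed between genotypes, higher in *Ncoa6*-KO cells with medium alone (log2 fold change 1.22, SE 0.251, adjusted p = 0.0388). In the medium libraries *Kit* and *Cd34* weigh most in these sums. Before normalization *Kit* had 371 and 398 counts in *Ncoa6*-sufficient and 849 and 363 in *Ncoa6*-KO medium libraries, so it was high in *Ncoa6*-KO library 1 alone. The counts of *Cd34* were 276 and 302 against 544 and 807. The granule genes *Mpo* and *Elane* had at most 22 and 5 counts in any library and *Flt3* at most 4. On stimulation 1 of the progenitor markers fell in *Ncoa6*-sufficient cells (*Kit*, -3.22) and 2 rose (*Gfi1*, 5.58, and *Myb*, 1.32). Of all genes tested, 30.5% fell and 24.7% rose in that comparison. The 9 neutrophil markers summed to 658 to 694 normalized counts in *Ncoa6*-sufficient and 608 to 736 in *Ncoa6*-KO medium libraries, and to 1511 to 2075 and 1540 to 1643 after LPS + MSU. Of the 8 past the count limit, 0 passed between genotypes in edgeR (1 in medium and 0 after stimulation at an unadjusted p under 0.05), and *Ly6g* had at most 1 count. Summed stromal markers were 152 and 498 in the *Ncoa6*-KO medium libraries against 414 and 478 in the *Ncoa6*-sufficient ones, and 366 and 866 against 939 and 996 after stimulation. Of 6 osteoclast markers past the count limit, *Dcstamp* (-1.24) and *Mmp9* (-0.67) were lower and *Ctsk* higher (0.68) in *Ncoa6*-KO cells with medium alone, and *Ctsk* was higher with LPS + MSU (0.80). Of 3 erythroid and megakaryocyte markers past it, *Pf4* was lower with medium alone (-0.83). Of 4 B cell markers past it, 0 passed between genotypes (0 in medium and 1 after stimulation at an unadjusted p under 0.05). The part of these markers in the mitotic differences was not tested.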

How the data were processed

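RNA of 8 BMDM libraries was sequenced from stranded poly(A) TruSeq libraries. The authors aligned the reads with STAR 2.7.3a to GRCm38 and deposited expected counts per gene from RSEM 1.3.3, not normalized; the submitters' processing notes give both versions. The strand setting of the counting is not given in the sources used here, so the 6 largest exon overlaps with a gene on the other strand are stated. Expected counts were rounded, genes under 10 counts summed over the 8 libraries were left out, and edgeR 4.0.16 in R 4.3.3 fitted the 4 groups (TMM, quasi-likelihood, 4 residual degrees of freedom, median biological coefficient of variation 0.114), with Benjamini-Hochberg adjustment over 17625 genes and calls at an adjusted p under 0.05. All adjusted p-values in the text come from this fit unless another is named. Normalized counts are counts per effective library of mean size 29332189. The fit was tested on simulated data. Lists were matched by gene symbol, 50295 genes having one. Positions, exon lengths and overlaps are from GENCODE M21, and promoters from RefSeq (GRCm38.p6).

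The 45 members, the lists and the tests were chosen with earlier results of these data known. All 45 could be named. Values in every library are given for 16 members set by role, the 5 with the smallest p in each comparison and those called between genotypes, and from each other list up to 3 genes with the smallest p. Single marker genes and CDK inhibitors beyond this rule were named after their values were seen. The result of 1 marker gene is not reported here. Alternatives were DESeq2 1.42.0, limma-voom 3.58.1, other scalings, filters and thresholds, a replicate block, and leaving out each library.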

Additional observations from a re-analysis of the deposited data

How the results depend on the processing

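Most members fell on stimulation under every alternative run: 32 to 44 were called lower in *Ncoa6*-sufficient and 35 to 44 in *Ncoa6*-KO cells, and 1 to 3 and 1 to 2 higher. Their median moved to -2.48 and -2.35 with total counts in place of TMM factors and lay between -1.87 and -1.62, and between -1.94 and -1.66, with 1 library left out. Under total counts *Cenpe* reversed to -0.33 in *Ncoa6*-sufficient and -0.36 in *Ncoa6*-KO cells, *Kif4* to -0.51 in *Ncoa6*-sufficient and *Tpx2* to -0.63 in *Ncoa6*-KO cells.

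The genotype counts depended on the fit, and the cause was not tested. The steady direction with medium alone is weak support, since no member's libraries overlapped between genotypes there and all members share those libraries. For medium alone (10 called) the count was 18 with DESeq2 (2.81% of all genes called, against 1.88%), 33 with no count filter (4.67%), 0 with an absolute log2 fold change over 1, and 0 to 7 with 1 library left out, and all 45 members stayed lower throughout. For LPS + MSU (16 called) it was 10 with total counts (3.96% of all genes, against 3.59%), 1 with only the libraries compared (0.789%, with fewer residual degrees of freedom), 0 with an absolute log2 fold change over 1, and 0 to 17 with 1 library left out, when 38 to 45 members were lower and the median was -0.52 to -0.27. In the interaction (0 called) 1 member, *Cdc20*, passed with no count filter (adjusted p = 0.0365, with 1.09% of all genes called). With no library left out, called under every alternative other than the fold limit were 6 of the 10 in medium alone (*Aurka*, *Birc5*, *Plk1*, *Prc1*, *Tpx2* and *Ube2c*) and *Cdk1* of the 16 with LPS + MSU.

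Libraries that share a number in the labels are not said to share a mouse, so the number was no block in the reported fit. Over 11219 genes, same-numbered libraries deviated together at r = 0.31 and 0.369 within a genotype and at 0.0523 to 0.199 across genotypes. With a replicate block across all groups the counts were 34 for medium alone and 21 for LPS + MSU, where 5.80% and 8.69% of all genes were called. With a block within each genotype they were 40 and 30 (10.7% and 14.7% of all genes), and *Cdc20* passed in the interaction, the 1 member that did (adjusted p = 0.0405, with 2.52% of all genes called).

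With 2 libraries a group, genotype differences of the size seen here lie near what the test can detect, and a member that did not pass is not shown to be unchanged.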
